A study of Mus musculus with 9 samples.

Results

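In the fetal liver, red cell precursors mature in clusters around a central macrophage. Transcripts of 6 genes that act at this contact were examined in sorted fetal liver (FL) macrophages: *Vcam1*, *Icam1*, *Siglec1*, *Sirpa*, *Maea* and *Epor*. They were chosen by name, as adhesion and receptor genes of the erythroblastic island, and their rows were found in the deposited table through the Ensembl identifiers of the mouse annotation. All 6 had a row among the 13708 genes of the table, and all 6 passed the filter on low values.

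Bulk RNA-seq libraries had been made from macrophages (CD45+ F4/80hi CD11blow) that were sorted from E15.5 livers, with 5 samples from Mrc1Cre Xpr1fl/fl embryos and 4 from Xpr1fl/fl embryos. Both genotypes carry *Xpr1*, the gene of a phosphate exporter, with loxP sites around an early exon. In Mrc1Cre Xpr1fl/fl embryos Cre is made from the *Mrc1* locus, which encodes the mannose receptor CD206. The driver is therefore also active in sinusoidal endothelial cells of the liver, and the sorted cells of this genotype hold Tim4hi and Tim4lo macrophages. The control embryos carry the floxed allele and no Cre, so no sample carries Cre with intact *Xpr1*. The labels do not say whether each sample came from a separate embryo, and the p-values below measure the spread between these samples. Normalized counts of *Xpr1* were 1162 ± 84.9 (SD, n = 5) in Mrc1Cre Xpr1fl/fl and 1982 ± 205 (SD, n = 4) in Xpr1fl/fl samples, without overlap. *Mrc1*, into which Cre was inserted, was at 7574 ± 1266 and 24693 ± 2674. The macrophage gene *Adgre1*, which encodes F4/80 of the sorting gate, was at 46581 and 46008 on average. All 17 macrophage markers of a list were detected. By the test described below 3 of them were higher, 4 lower and 10 not called, where 43.1% of all genes were called. The largest rise was that of *Ptprc* (log2 fold change 0.85), and the largest falls were those of *Lyz2* (−1.11) and *C1qa* (−0.86).

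An erythroblastic island holds a macrophage to which erythroblasts bind at successive stages of maturation. VCAM1 on the macrophage binds the integrin of *Itga4* and *Itgb1* on the erythroblast, ICAM1 binds leukocyte integrins, SIRPA receives an inhibitory signal from CD47, and SIGLEC1 binds sialic acid on the surface of other cells. MAEA was first described as a protein that holds erythroblasts and macrophages together and is also a subunit of the CTLH ubiquitin ligase. The erythropoietin receptor, encoded by *Epor*, drives the survival of erythroid progenitors and has also been described on island macrophages. Erythroid cells are a known site of expression of *Epor* and *Maea*, endothelial cells of *Vcam1* and *Icam1*. *Siglec1* and *Sirpa* are mainly genes of macrophages and other myeloid cells.

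The sequences before the start sites of 4 of the genes are shown because they let the genes with the largest differences be compared with a macrophage gene in letters. Each is the stretch of 250 bases before the start of the canonical transcript (GENCODE M39 on GRCm39), read 5′ to 3′ on the strand of the gene. The windows are chr9:21874874-21875123 (minus strand) for *Epor*, chr9:20926422-20926671 (plus strand) for *Icam1*, chr3:115923348-115923597 (minus strand) for *Vcam1* and chr2:130928686-130928935 (minus strand) for *Siglec1*. Capitals mark a match to 1 of the 6 motifs searched.
Epor: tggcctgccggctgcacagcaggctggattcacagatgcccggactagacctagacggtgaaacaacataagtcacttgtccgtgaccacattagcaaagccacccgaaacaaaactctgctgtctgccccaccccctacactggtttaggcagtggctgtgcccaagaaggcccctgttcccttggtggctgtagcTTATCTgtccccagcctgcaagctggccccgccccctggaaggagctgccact
Icam1: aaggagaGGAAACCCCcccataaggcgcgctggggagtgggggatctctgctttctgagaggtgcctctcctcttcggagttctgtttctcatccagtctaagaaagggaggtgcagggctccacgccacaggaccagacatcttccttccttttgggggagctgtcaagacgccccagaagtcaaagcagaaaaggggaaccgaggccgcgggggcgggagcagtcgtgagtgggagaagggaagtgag
Vcam1: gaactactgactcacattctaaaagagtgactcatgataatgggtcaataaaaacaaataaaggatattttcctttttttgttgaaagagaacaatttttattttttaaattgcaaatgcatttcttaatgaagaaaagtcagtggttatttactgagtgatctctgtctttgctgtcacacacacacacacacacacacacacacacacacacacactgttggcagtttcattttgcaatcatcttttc
Siglec1: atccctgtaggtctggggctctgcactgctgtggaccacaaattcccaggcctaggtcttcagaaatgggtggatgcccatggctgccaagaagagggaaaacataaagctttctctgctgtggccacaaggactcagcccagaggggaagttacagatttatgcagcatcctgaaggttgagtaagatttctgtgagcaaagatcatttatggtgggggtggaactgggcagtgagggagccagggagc

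The *Epor* window held the letters of a GATA site (AGATAA, found as TTATCT on the gene's own strand) from 53 to 48 bases before the start. The *Icam1* window held those of an NF-kB site (GGGNNTTCC, found as GGAAACCCC) from 243 to 235 bases before it. These letters, searched on both strands, occur in 7.91% and 5.46% of the same windows of 13584 genes of the table, so both matches are common and are given as a description. The other motifs were the interferon-stimulated response element core (in 3.25% of windows), the interferon gamma activated site (TTCNNNGAA, 6.91%), a PU.1 site (GAGGAAGT, 2.30%) and a CACCC box (CACACCC, 7.05%). None of the 6 motifs was found in the windows of *Vcam1*, *Siglec1*, *Sirpa* or *Maea*. The windows also differed in base composition, with 33.2% G and C before *Vcam1* and 58.8% before *Epor*.

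Of the 6 genes, *Icam1*, *Siglec1* and *Sirpa* were higher in Mrc1Cre Xpr1fl/fl macrophages, *Vcam1* and *Epor* were lower, and *Maea* did not pass the test. Differences were tested with limma on log2(normalized count + 1), with Benjamini-Hochberg adjustment over the 13594 genes tested and a threshold of 0.05. By this rule 43.1% of all genes were called, 21.5% as higher and 21.6% as lower, so the 5 calls among 6 genes stand beside a high background. When each sample was scaled to its 75th percentile instead, 1999 genes were called higher and 3707 lower, where 2926 and 2939 were before, and the 5 genes called kept their directions. For 4 of the 6 genes every sample of 1 genotype was above every sample of the other, which was so for 34.1% of all genes.

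**Figure D1:**
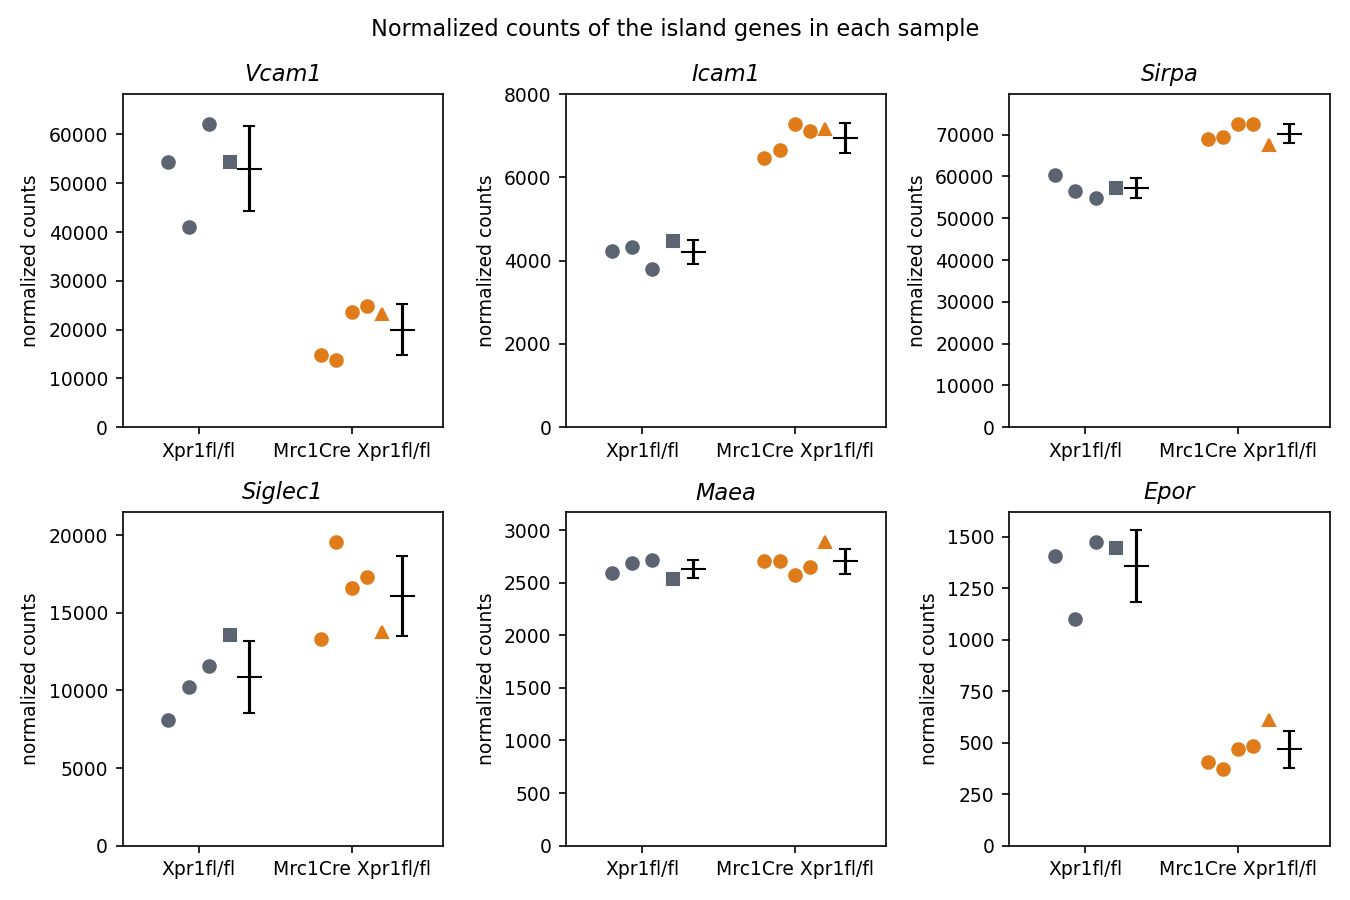
Normalized counts (y axis, from 0) of the 6 genes in each Xpr1fl/fl (grey) and Mrc1Cre Xpr1fl/fl (orange) sample, with the mean and SD as a black bar. Circles are samples of the date most common in their genotype, the triangle is Mrc1Cre Xpr1fl/fl sample 5, which shares the date of Xpr1fl/fl samples 1 to 3, and the square is Xpr1fl/fl sample 4. The genotypes are apart for *Vcam1*, *Icam1*, *Sirpa* and *Epor* and overlap for *Siglec1* and *Maea*.

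Names of the table's columns begin with 1 of 3 dates, and the labels do not say what the dates stand for. Mrc1Cre Xpr1fl/fl sample 5 and Xpr1fl/fl samples 1 to 3 share the earliest date, Xpr1fl/fl sample 4 has the middle one and Mrc1Cre Xpr1fl/fl samples 1 to 4 the latest. A fit with the date as a term therefore compares 1 Mrc1Cre Xpr1fl/fl sample with 3 controls, and it called 8.78% of all genes. Markers of other cells moved with the genotype as well, in the fit without the date, which called 21.5% of all genes higher and 21.6% lower. Of 35 erythroid markers tested, 35 were lower in Mrc1Cre Xpr1fl/fl samples (median log2 fold change −1.79, and 0.005 over all genes tested), with a summed level of 106666 to 337564 normalized counts against 455525 to 715985. Of 25 endothelial markers 20 were lower and 1 higher (median −1.27), with a summed level of 17775 to 23247 against 29754 to 39408. The most abundant were *Cdh5*, at 10683 against 18279 on average, and *Stab2*, at 4793 against 8125. The study counts *Cdh5* among the identity genes of FL macrophages, so this sum is not one of endothelial cells alone. The CD45+ gate selects against endothelial cells, which lack CD45, but the purity of the sort is not given in the sources used here. The count of higher endothelial markers went from 1 to 0 without Mrc1Cre Xpr1fl/fl sample 1, 2 or 4 or Xpr1fl/fl sample 1, 2 or 4. No marker of either list was at 0 in every sample. Below, the change of single genes is set beside that of these markers, which does not measure how much of a gene's counts came from other cells. In bulk samples, fewer cells of a type and less RNA per cell cannot be told apart.

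*Vcam1* (ENSMUSG00000027962, chr3:115903598-115923355, minus strand, 9 exons) encodes the adhesion molecule that holds erythroblasts through their alpha4 beta1 integrin. In Mrc1Cre Xpr1fl/fl samples 1 to 5 its normalized counts were 14799, 13724, 23531, 24797 and 23232. In Xpr1fl/fl samples 1 to 4 they were 54416, 41095, 62172 and 54301. Every Mrc1Cre Xpr1fl/fl sample was below every control, and within the genotype samples 1 and 2 were lower than the other 3. The means were 20016 ± 5299.8 (SD, n = 5) and 52996 ± 8747 (SD, n = 4), a level 2.65 times as high in controls, and the log2 fold change was −1.43 ± 0.19 (standard error; limma adjusted p = 0.000174). The gene ranked 39th by normalized count in controls and 156th in Mrc1Cre Xpr1fl/fl samples, of 13708 genes. Without any 1 sample the log2 fold change was −1.55 to −1.31 and stayed past the threshold. On the earliest date, sample 5 at 23232 was again below the 3 controls, and the fit with the date gave −1.16 (limma adjusted p = 0.0584), which did not pass.

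Since endothelial cells also express *Vcam1*, its change was set beside that of the 25 endothelial markers. In each sample the log2 value of *Vcam1* minus the mean log2 value of these markers was taken. This distance was 7.47 ± 0.35 (SD, n = 5) in Mrc1Cre Xpr1fl/fl and 7.87 ± 0.50 (SD, n = 4) in Xpr1fl/fl samples. The difference of −0.40 had an interval of −1.12 to 0.30 (95%, exact permutation test, two-sided, p = 0.206, adjusted p = 0.246 over 6 such distances), so on the log2 scale the fall of *Vcam1* was not shown to differ from that of the endothelial markers. In normalized counts the mean of *Vcam1* was lower by 32980 and that of the summed 25 markers by 13364. The lowest control value of *Vcam1*, 41095, was above the highest control sum of the markers, 39408. Which cells the *Vcam1* counts came from was not tested.

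*Icam1* (ENSMUSG00000037405, chr9:20926672-20940113, plus strand, 7 exons) encodes a ligand of the leukocyte integrins and is a well-known target of inflammatory signals. Its normalized counts were 6453, 6653, 7284, 7117 and 7161 in Mrc1Cre Xpr1fl/fl samples 1 to 5. They were 4220.1, 4332, 3791 and 4462 in Xpr1fl/fl samples 1 to 4. All 5 Mrc1Cre Xpr1fl/fl samples were above all 4 controls, and sample 5 at 7161 lay inside the range of its genotype although it shares the date of controls. The means were 6934 ± 359.8 (SD, n = 5) and 4201 ± 291 (SD, n = 4), 1.65 times as high, and on the log2 scale the difference was 0.72 ± 0.06 (standard error; limma adjusted p = 1.26e-05). With the date as a term it was 0.80 (limma adjusted p = 0.00247), and *Icam1* was the single gene of the 6 called higher in that fit, where 4.24% of all genes were.

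*Icam1* moved away from *Vcam1* in the same samples. Per kb of transcript, *Vcam1* was 8.57 to 14.8 times as abundant as *Icam1* in controls and 1.86 to 3.15 times in Mrc1Cre Xpr1fl/fl samples. The difference of *Icam1* from the endothelial markers was large. Its log2 distance from them was 5.99 ± 0.15 (SD, n = 5) against 4.23 ± 0.65 (SD, n = 4), a difference of 1.76 (interval 1.18 to 2.50; exact permutation p = 0.00794, the smallest that 126 splits allow, adjusted p = 0.0238). *Icam1* and the mean of these markers were each already apart between the genotypes, in opposite directions. This p-value therefore adds nothing to their separate changes. All 25 endothelial markers had a lower log2 fold change than *Icam1*. Of 25 other genes often used as NF-kB targets 18 were higher and 1 lower (median log2 fold change 0.45), where 21.5% and 21.6% of all genes were. The distance of *Icam1* from the mean of these 25 targets differed by 0.13 (interval −0.14 to 0.40, exact permutation p = 0.246, adjusted p = 0.246). In that list *Ccl5*, a chemokine, had a log2 fold change of 2.31 and *Nfkbia*, the inhibitor of NF-kB, one of −0.23, which was no longer called without Mrc1Cre Xpr1fl/fl sample 2, 3 or 4 or Xpr1fl/fl sample 1, 3 or 4.

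**Figure D2:**
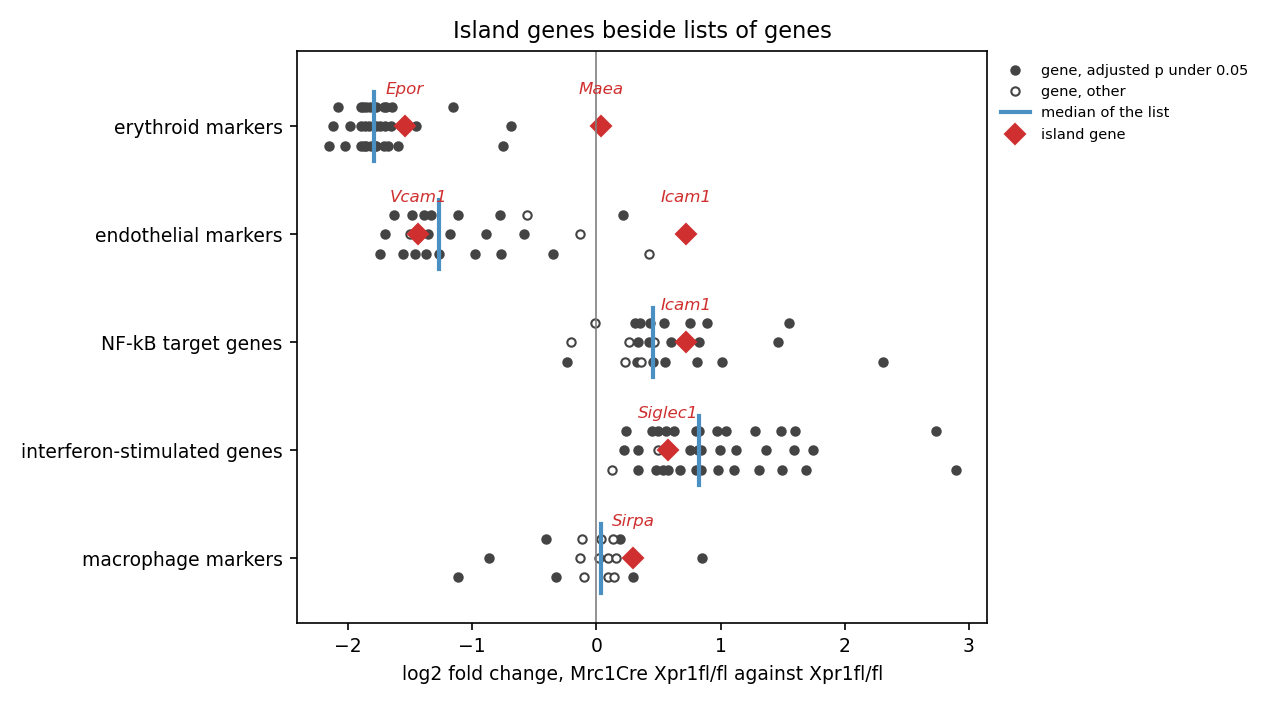
Log2 fold change (x axis, Mrc1Cre Xpr1fl/fl against Xpr1fl/fl) of the genes of 5 lists, each dot a gene, filled where the limma adjusted p is under 0.05, with the median of each list in blue and the island genes as red diamonds. *Epor* and *Vcam1* lie among the erythroid and endothelial markers, *Maea* and *Icam1* lie to the right of all of them, and *Siglec1* and *Icam1* lie within the interferon and NF-kB lists.

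*Siglec1* (ENSMUSG00000027322, chr2:130911140-130928685, minus strand, 21 exons) encodes CD169, a sialic acid-binding lectin of tissue macrophages that interferon is known to induce. Mrc1Cre Xpr1fl/fl samples 1 to 5 had 13345, 19547, 16618, 17304 and 13743 normalized counts. Xpr1fl/fl samples 1 to 4 had 8129, 10196, 11591 and 13592. The genotypes overlapped, because Mrc1Cre Xpr1fl/fl sample 1 was below Xpr1fl/fl sample 4. The means of 16112 ± 2586 (SD, n = 5) and 10877 ± 2302 (SD, n = 4) differed by 0.58 ± 0.15 on the log2 scale (standard error; limma adjusted p = 0.00858). The date term gave 0.48 (limma adjusted p = 0.184), which did not pass, and sample 5 at 13743 was above the 3 controls of its date. Of 40 other interferon-stimulated genes 38 were higher and 0 lower (median log2 fold change 0.82), where 21.5% and 21.6% of all genes were. The mean rise of these 40 genes was 0.96 on the log2 scale. The distance of *Siglec1* from their mean differed by −0.38 between the genotypes (interval −0.78 to 0.0017), which did not pass (exact permutation p = 0.0556, adjusted p = 0.111). None of the 7 other genes of sialic acid-binding lectins in the table was called higher and 3 were lower by limma, with values of −1.43 for *Cd22*, −1.02 for *Siglecg* and −0.69 for *Cd33*, while *Siglece* had 0.22 (limma adjusted p = 0.236). Over all genes tested the shares were 21.5% higher and 21.6% lower.

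*Sirpa* (ENSMUSG00000037902, chr2:129434039-129474148, plus strand, 8 exons) encodes the receptor through which CD47 restrains engulfment. Its normalized counts were 69015, 69427, 72573, 72584 and 67633 in Mrc1Cre Xpr1fl/fl samples 1 to 5. In Xpr1fl/fl samples 1 to 4 they were 60360.1, 56453, 54809 and 57199. The genotypes did not overlap, and the spread within each was the smallest of the called genes beside its level, 3.17% and 4.07% of the mean. The means were 70246 ± 2229.9 (SD, n = 5) and 57205 ± 2328 (SD, n = 4), which is a rise of 0.30 ± 0.06 on the log2 scale (standard error; limma adjusted p = 0.00153). Quantile normalization gave 0.50, and the date term 0.24 (limma adjusted p = 0.141), which did not pass. Reads of *Sirpa* may be shared with its near copies *Sirpb1a*, *Sirpb1b* and *Sirpb1c*, whose fold changes of 1.76, 1.72 and 1.66 (log2) were larger at far lower counts, with means of 139 to 450.1 in Mrc1Cre Xpr1fl/fl samples.

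*Maea* (ENSMUSG00000079562, chr5:33492853-33530640, plus strand, 9 exons) encodes the erythroblast and macrophage attacher. It had 2701, 2706, 2568, 2653 and 2883 normalized counts in Mrc1Cre Xpr1fl/fl samples 1 to 5. It had 2589, 2691, 2711 and 2531 in Xpr1fl/fl samples 1 to 4. The ranges overlapped, and sample 5 was the highest of all. The means were 2702 ± 115 (SD, n = 5) and 2631 ± 85.2 (SD, n = 4), and the log2 fold change was 0.04 with an interval of −0.07 to 0.15 (limma adjusted p = 0.556). Its sign turned with the scaling, to −0.04 and −0.06, and it was not called in any fit. The erythroid markers had a mean log2 change of −1.73, and the log2 distance of *Maea* from them was −0.28 ± 0.27 (SD, n = 4) in controls and 1.50 ± 0.45 (SD, n = 5) in Mrc1Cre Xpr1fl/fl samples, a difference of 1.77 (interval 1.19 to 2.39; exact permutation p = 0.00794, the smallest possible, adjusted p = 0.0238). The mean of the markers was already apart between the genotypes and *Maea* hardly moved. This p-value therefore repeats the fall of the markers and is no separate result on *Maea*.

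*Epor* (ENSMUSG00000006235, chr9:21870192-21874879, minus strand, 8 exons) encodes the erythropoietin receptor. In Mrc1Cre Xpr1fl/fl samples 1 to 5 its normalized counts were 406, 373, 468, 483 and 608. In Xpr1fl/fl samples 1 to 4 they were 1407, 1099, 1472 and 1446. No sample of either genotype reached the other, and sample 5, which shares the date of controls, was the highest of the Mrc1Cre Xpr1fl/fl samples. The means were 468 ± 90.4 (SD, n = 5) and 1356 ± 173 (SD, n = 4), and the log2 fold change was −1.54 ± 0.14 (standard error; limma adjusted p = 2.04e-05). With the date as a term it was −1.11 (limma adjusted p = 0.00877), and *Epor* was the single gene of the 6 called lower in that fit, where 4.54% of all genes were. The gene overlaps *Swsap1* on the opposite strand (chr9:21867044-21871450), which was at 194 ± 28.2 (SD, n = 5) and 201 ± 10.3 (SD, n = 4) and was not called (log2 fold change −0.06, limma adjusted p = 0.726). The library kit keeps strand, and whether the counting used it is not given in the sources used here.

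The fall of *Epor* was next set beside that of the erythroid markers, since erythroblasts are known to express it. Its log2 distance from the mean of the 35 markers was −1.05 ± 0.21 (SD, n = 5) in Mrc1Cre Xpr1fl/fl samples and −1.24 ± 0.13 (SD, n = 4) in controls. The difference of 0.19 (interval −0.10 to 0.49) did not pass (exact permutation p = 0.167, adjusted p = 0.246). On the earliest date the distance was −1.34 in Mrc1Cre Xpr1fl/fl sample 5, below the −1.07, −1.23 and −1.29 of Xpr1fl/fl samples 1 to 3, which is the opposite order to that of the means. Among the 35 erythroid markers 31 had a lower log2 fold change than *Epor*, and 4 did not. The mean log2 value of the markers was 9.29 to 10.6 in Mrc1Cre Xpr1fl/fl and 11.3 to 11.9 in Xpr1fl/fl samples. When this mean was a covariate, the log2 fold change by limma was −0.54 for *Epor* (adjusted p = 0.319), −0.23 for *Vcam1* (0.865), 0.84 for *Icam1* (0.0866), 0.25 for *Sirpa* (0.602) and 0.41 for *Siglec1* (0.795). None of these passed, in a fit that called 18 genes in all and in which genotype accounts for 0.861 of the variance of the covariate (r squared), so that the erythroid signal and the genotype cannot be told apart.

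**Figure D3:**
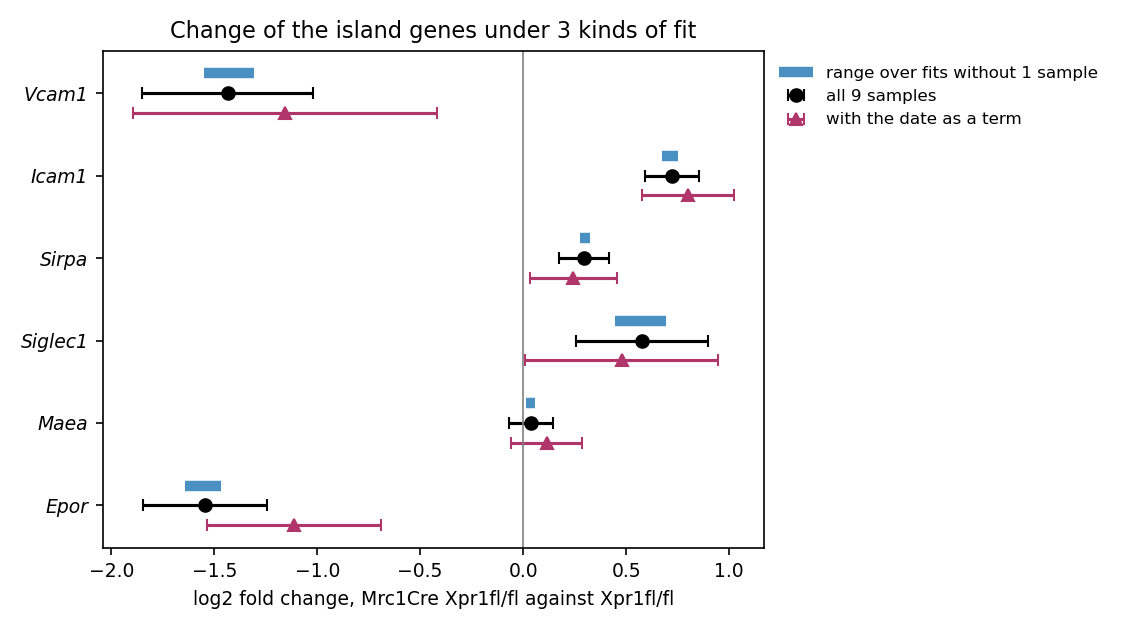
Log2 fold change of the 6 genes (x axis, Mrc1Cre Xpr1fl/fl against Xpr1fl/fl) in limma fits of all 9 samples (black, 95% interval) and with the date as a term (magenta, 95% interval), and the range over the 9 fits that each left out 1 sample (blue). *Vcam1* and *Epor* lie left of 0 and *Icam1*, *Sirpa* and *Siglec1* right of 0 in all of these fits, while *Maea* has intervals that hold 0.

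Levels of different genes were compared per kb of the canonical transcript. In Xpr1fl/fl macrophages *Vcam1* at 15233 ± 2514 normalized counts per kb (SD, n = 4) and *Sirpa* at 12529 ± 509.9 were the highest, and their ranges overlapped. *Siglec1* at 1703 ± 360.4, *Icam1* at 1336 ± 92.5 and *Maea* at 1199.6 ± 38.8 followed, each overlapping with the next, and *Epor* was the lowest at 740.2 ± 94.6. In Mrc1Cre Xpr1fl/fl macrophages the order began with *Sirpa* at 15385 ± 488 (SD, n = 5), above *Vcam1* at 5753 ± 1523 without overlap. *Siglec1* at 2523 ± 405 and *Icam1* at 2205 ± 114 overlapped and were above *Maea* at 1232 ± 52.6, which was above *Epor* at 255 ± 49.3. The ratio of *Maea* to *Epor* per kb was 1.46 to 2.05 in controls and 3.96 to 6.06 in Mrc1Cre Xpr1fl/fl samples. Unequal counting along transcripts also sets such levels, so the order is less certain than the differences between genotypes.

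**Figure D4:**
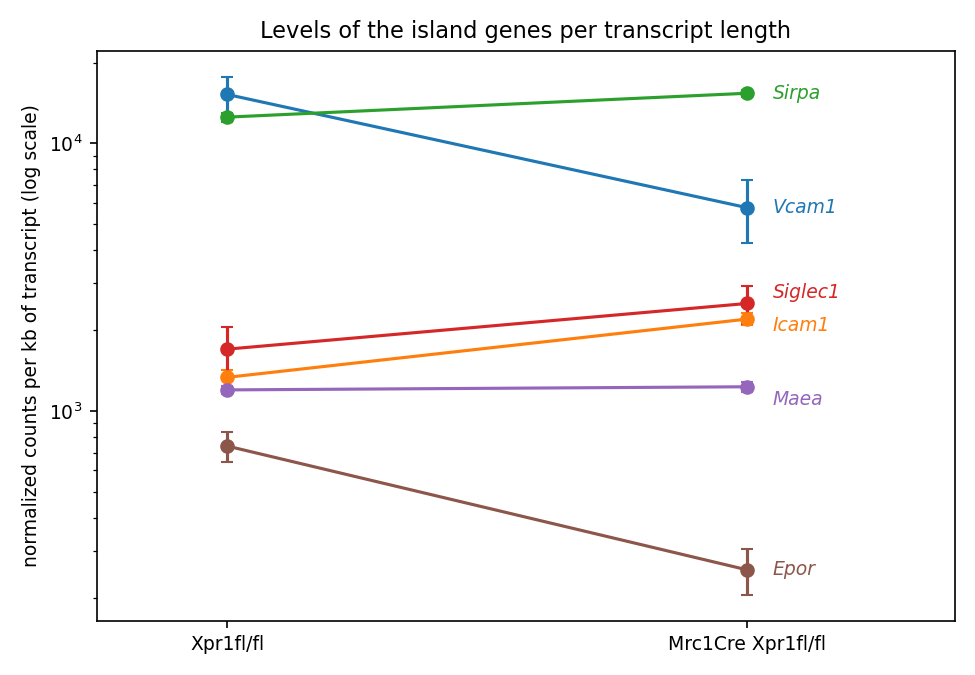
Normalized counts per kb of canonical transcript (y axis, log scale; mean and SD) of the 6 genes in Xpr1fl/fl (n = 4) and Mrc1Cre Xpr1fl/fl (n = 5) samples. *Vcam1* goes from 15233 to 5753 and falls below *Sirpa*, *Icam1* goes from 1336 to 2205 and *Maea* stays at about 1200 (1199.6 and 1232).

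The receptors that bind these molecules were measured in the same samples. Of 21 contact partners 12 were higher, 5 lower and 4 not called (median log2 fold change 0.27), beside the background of 21.5% and 21.6%. The largest rise was that of *Itgax* (1.77). The largest falls were those of *Icam4* (−2.16) and *Ephb4* (−1.53, from 109 to 35.1 normalized counts on average). The integrin genes *Itga4* and *Itgb1*, whose product binds VCAM1, went from 7352 ± 1149 to 13067 ± 2499.6 and from 15777 ± 519 to 21019 ± 1369.6 normalized counts (SD, n = 4 and n = 5), with log2 fold changes of 0.82 and 0.41 (limma adjusted p = 0.0014 and 0.000238), opposite in sign to *Vcam1*. *Itga9*, another partner of VCAM1, rose by 0.65. The integrin genes of the leukocyte group that bind ICAM1 rose as *Icam1* did, with log2 fold changes of 0.72 for *Itgal*, 0.42 for *Itgam*, 0.34 for *Itgb2* and 1.77 for *Itgax*. *Cd47*, the ligand of SIRPA, was at 9531 ± 453 and 9015 ± 696 (log2 fold change 0.08, limma adjusted p = 0.291), and *Spn*, a sialic acid-bearing ligand of SIGLEC1, was lower (−0.83). Many of these genes are also genes of macrophages themselves, so their counts do not give the level on the bound cell.

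*Icam4*, the erythroid adhesion gene of the same family, lies 556 bases beyond the end of *Icam1* on the same strand and went the other way. It fell from 332 ± 37.1 to 78.6 ± 33.3 normalized counts (log2 fold change −2.16, limma adjusted p = 9.9e-05), while the next gene, *Icam5*, had 26.4 and 17.3 (−0.60, limma adjusted p = 0.125). Among 20 other adhesion genes of the immunoglobulin superfamily 7 were higher and 10 lower, *Icam4* included, beside 21.5% and 21.6% of all genes. *Icam2* at 1.12, *L1cam* at 1.65 and *Cd244a* at 1.62 were among those higher, and *Bcam* at −2.06 was among those lower (log2 fold changes). The signs of *Icam1* and *Vcam1* thus each occur in other genes of their family.

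**Figure D5:**
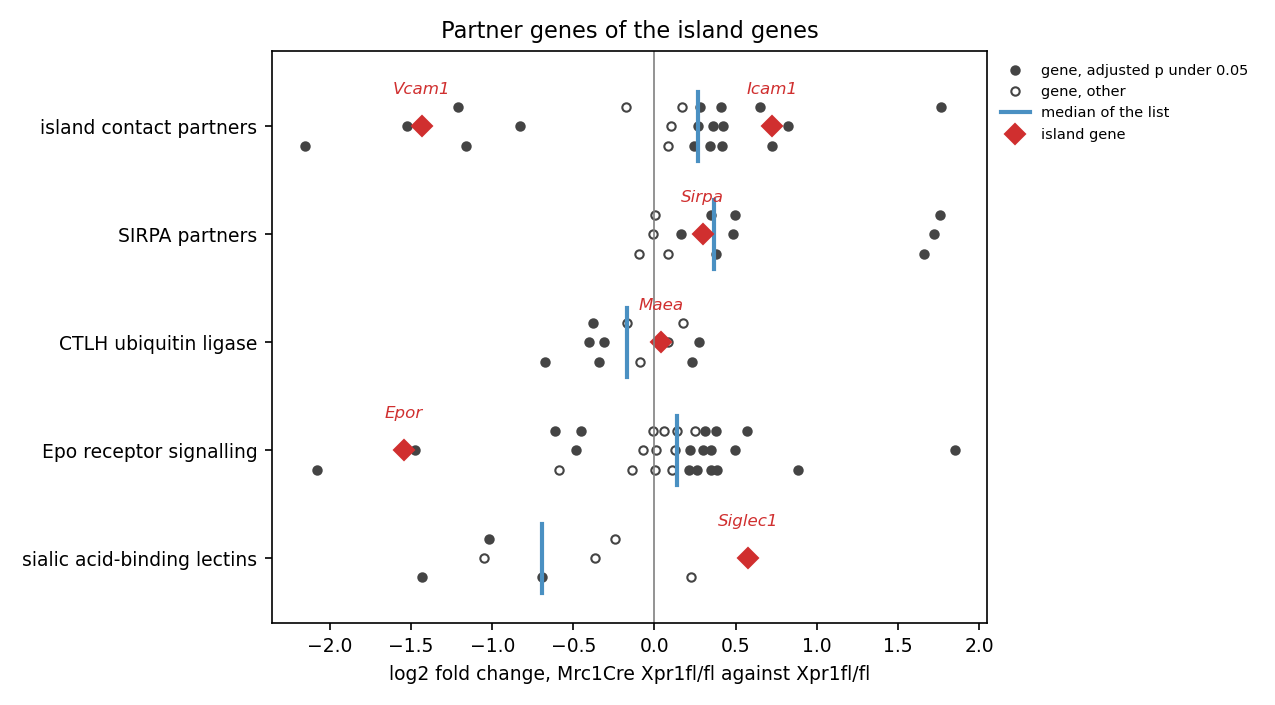
Log2 fold change (x axis, Mrc1Cre Xpr1fl/fl against Xpr1fl/fl) of genes related to the 6 island genes, each dot a gene, filled where the limma adjusted p is under 0.05, with list medians in blue and the island genes as red diamonds. *Epor* at −1.54 lies far from the median of the signalling genes (0.14), and *Siglec1* at 0.58 lies to the right of the other lectin genes.

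Genes of the pathway inside the cell did not move as 1 group with *Epor*. Of 29 genes of erythropoietin receptor signalling tested 13 were higher and 5 lower (median log2 fold change 0.14), where 21.5% and 21.6% of all genes were. The hormone gene *Epo* had no row. *Jak2*, the kinase bound to the receptor, had −0.01 and *Stat5a* 0.01 (limma adjusted p = 0.92 and 0.957), while *Stat5b* at 0.22, *Lyn* at 0.31 and *Ptpn6* at 0.38 were higher. *Socs2*, a feedback gene of STAT5, fell by 1.48 and *Erfe*, which erythroblasts make in response to erythropoietin, fell by 2.08 on the log2 scale. *Trib3* rose by 1.85, from 36.9 ± 10.6 to 138 ± 48.2 normalized counts. *Gab1*, an adaptor of the receptor, fell by 0.61.

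The other subunits of the ligase that holds MAEA were not uniform. Of 11 genes of the CTLH complex 2 were higher, 5 lower and 4 not called (median log2 fold change −0.17), where 21.5% of all genes were higher and 21.6% lower. With scaling to the 75th percentile 1 of the 11 was higher and 6 lower. Without Mrc1Cre Xpr1fl/fl sample 3 or Xpr1fl/fl sample 2, 1 was higher. *Ranbp10* (−0.67), *Armc8* (−0.40), *Ypel5* (−0.38), *Ube2h* (−0.34) and *Gid8* (−0.31) were lower, *Ranbp9* (0.27) and *Rmnd5a* (0.23) higher. *Rmnd5a*, which encodes the RING partner of MAEA in the ligase, went from 6802.5 ± 381.5 to 8016 ± 787 normalized counts (limma adjusted p = 0.024), and its paralog *Rmnd5b* had −0.17 (limma adjusted p = 0.162). With the date as a term the median log2 fold change of the 11 was −0.156, and 0.012 over all genes tested.

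Of 12 genes of SIRPA partners and relatives tested, 8 were higher and 0 lower (7 and 1 with scaling to the 75th percentile), with a median log2 fold change of 0.36. Over all genes tested, 21.5% were higher and 21.6% lower. The phosphatases that SIRPA recruits, *Ptpn6* at 0.38 and *Ptpn11* at 0.35, and the adaptors *Fyb1* at 0.48 and *Ptk2b* at 0.49 rose by about as much as *Sirpa* at 0.30. *Tyrobp*, which pairs with the SIRPB1 proteins, had −0.10 (limma adjusted p = 0.235).

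Of 18 other genes known from island macrophages 2 were higher and 7 lower (median log2 fold change −0.14), where 21.5% of all genes were higher and 21.6% lower. With scaling to the 75th percentile 0 were higher and 10 lower. The mean log2 value of the list was 13.65 to 13.83 in Mrc1Cre Xpr1fl/fl and 13.93 to 14.23 in Xpr1fl/fl samples. The count of higher genes, *Spic* and *Maf*, was 0 without Mrc1Cre Xpr1fl/fl sample 4 or Xpr1fl/fl sample 2, 3 or 4, and 1 without Mrc1Cre Xpr1fl/fl sample 2 or 3. *Cd163*, the scavenger receptor of haemoglobin, fell from 382 ± 145 to 41.2 ± 6.2 normalized counts (−3.12, limma adjusted p = 8.34e-06) and *Timd4* from 15283 ± 1702.5 to 8464 ± 835 (−0.85). *Slc40a1*, the iron exporter, had −0.09 (limma adjusted p = 0.325), and *Spic*, a factor of iron-recycling macrophages, had 0.24 (limma adjusted p = 0.0226).

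Genes most like 5 of the 6 across the 9 samples were found by the root mean square difference of the log2 values after centring each gene, among the 11400 tested genes whose mean reached 50 normalized counts. For *Vcam1* they were *Pdk2* (0.118) and *Icos* (0.128), and for *Epor* *Crip2* (0.0959) and *Prkar2b* (0.098). For *Icam1* they were *Tlr1* (0.0759) and *Pilra* (0.0785). *Sirpa* was closest to *Midn* (0.0297) and *Lman2* (0.0304), and *Maea* to *Umad1* (0.0262) and *Rae1* (0.0279). Of these 5 genes *Sirpa* and *Maea* had the shortest distances, and they also varied least between samples.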

How the data were processed

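RNA-seq libraries were made by the authors from 45 ng of total RNA per sample with a stranded mRNA kit. Per the study's methods, the authors checked reads with FastQC, counted them with salmon on an index of GRCm39, imported them with tximport and used DESeq2. Versions are not given in the sources used here. The deposited table holds a normalized signal for each gene (read counts scaled by the authors, with no negative value), for 13708 genes with a mean of at least 5.79. All columns were matched to samples by name, and 0 columns belonged to no mapped sample. The sums of 26942921 to 28309443 per sample are set by the normalization, so depth is unknown. Low values lay near whole multiples more often than by chance, but not all did (26% to 49.7% of them within 0.05 of one, 10% by chance). Whole reads were therefore not recovered and no count test was run. Symbols (13698 genes), coordinates, canonical transcripts and start sites came from GENCODE M39 on GRCm39.

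limma 3.58.1 in R 4.3.3 (lmFit, eBayes with trend) was run on log2(value + 1) where 4 or more samples reached 10 normalized counts, with Benjamini-Hochberg adjustment and a threshold of 0.05. This scale understates changes of low genes. Distances of a gene from a list were compared by two-sided exact permutation over 126 splits. In simulated data limma recovered 187 of 195 genes changed by 2 (log2) among 13392 and called 3 others, and with no change it called 0 of 13407. The simulation used independent noise for each gene and no date effect. It therefore checks the code and does not measure false calls or power in these samples. The genes named were the 6 genes, *Xpr1* and *Mrc1*, the 2 of nearest pattern to each (not reported here for *Siglec1*), the 2 most abundant and the 2 with the largest rise and fall of each list, and any gene of the lists of contact partners, CTLH, erythropoietin receptor and SIRPA genes. Not every gene that this rule allows is named in the text. *Swsap1*, *Adgre1*, *Icam5*, *Icam2* and *Slc40a1* were named after their values were seen. The 6 genes and all lists were chosen with earlier results of these data known. Alternatives were pseudocounts of 0.5 and 10, no filter and a filter at 50, scaling to the 75th percentile, quantile normalization, eBayes without trend and robust, array weights, a replicate block, the date, the erythroid covariate and leaving out each sample. Counts within lists under these fits were added after seeing the data. Python 3.11.15 with matplotlib 3.10.9 drew the figures.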

Additional observations from a re-analysis of the deposited data

How the results depend on the processing

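The log2 fold changes of *Vcam1*, *Icam1*, *Siglec1*, *Sirpa* and *Epor* kept their direction in all alternatives run, and all 5 stayed past the limma threshold in those other than the date term and the erythroid covariate. With the date as a term, *Vcam1* had −1.16, *Sirpa* 0.24 and *Siglec1* 0.48 and did not pass, and 1194 genes were called in place of 5865. With the mean of the erythroid markers as a covariate, *Vcam1* had −0.23, *Icam1* 0.84, *Sirpa* 0.25, *Siglec1* 0.41 and *Epor* −0.54, none past the threshold, and 18 genes were called. In these 2 fits the standard errors were larger than without the term, and the cause of the lost calls was not tested. *Maea*, never called, turned to −0.040 with scaling to the 75th percentile and −0.057 with quantile normalization. The date term also lowered counts within lists, for the contact partners from 12 higher and 5 lower to 4 and 2, for the interferon-stimulated genes from 38 higher to 15, for the erythroid markers from 35 lower to 16 and for the endothelial markers from 20 lower to 4.

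Without any 1 sample the count of called genes was 4815 to 6081. The distance of *Maea* from the erythroid markers was 1.62 to 1.92 and that of *Icam1* from the endothelial markers 1.47 to 1.99, with adjusted exact permutation p of 0.0536 to 0.0857, since fewer splits remain. Same-numbered samples did not deviate together (correlations of −0.035 to 0.147, 1 of 4 best with its own number), so the numbers do not pair samples. A replicate block, which drops Mrc1Cre Xpr1fl/fl sample 5 from the contrast, gave −1.50 for *Vcam1* and −1.64 for *Epor*, called 6226 genes and changed no call among the 6. The depth of the libraries is unknown, so no counting interval was given.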

Other observations

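Marker lists of other liver cells were also measured in these samples, which were gated as CD45+ F4/80hi CD11blow. The gate selects against hepatocytes by CD45 and against most megakaryocytes and granulocytes by F4/80, but the purity of the sort is not given. *Alb* was at 8475 normalized counts on average in Mrc1Cre Xpr1fl/fl and 18823 in Xpr1fl/fl samples. Which cells the transcripts of these lists came from was not tested. The counts below stand beside 21.5% of all genes called higher and 21.6% called lower. Of 18 hepatocyte markers 18 were lower in Mrc1Cre Xpr1fl/fl samples (median log2 fold change −1.10), with *Alb* at −1.11 and *Hnf4a* at −1.42. Of 12 megakaryocyte markers 8 were lower and 0 higher, *Clec1b* at −2.43 and *Pf4* at −1.76 (limma). *Clec1b* was at 933 on average in Mrc1Cre Xpr1fl/fl and 4822 in Xpr1fl/fl samples. The summed level of that list was 1372 to 2515 against 6162 to 8265, so *Clec1b* made up much of it. Of 16 granulocyte and progenitor markers 8 were lower and 0 higher, *Ctsg* at −2.26 and *Elane* at −2.22 (limma). Without Xpr1fl/fl sample 4 the last count was 14 lower, and the mean log2 value of that list was 7.68 in this sample and 9.29 to 10.4 in the other controls. Of 12 monocyte markers 4 were higher and 4 lower, with *Ms4a4c* at 2.05 and *Ly6c2* at −1.43. Of 17 macrophage markers 3 were higher and 4 lower (2 and 6 with scaling to the 75th percentile). In none of the 24 groups of values examined did 1 sample lie apart by Dixon's criterion, where 1.2 would by chance.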
